A study of Mus musculus with 21 samples.

Results

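MBD3 peaks of the embryonic mouse ganglionic eminences were the deposited list of places where chromatin immunoprecipitation followed by sequencing (ChIP-seq) with an antibody to MBD3 gave more signal than input DNA. All 11721 peaks of that list were taken, of 91480 peaks in the 6 ChIP lists of the series (12.8%). The tissue was labelled basal ganglia, and came from CD1 mouse embryos at embryonic stage E13.5. No genotype was given for these samples, and whether embryos were pooled was not stated. Fixation used 5 mM DSG followed by 1% PFA, and nuclear extract was sonicated (10 minutes) before fragments of 180 to 400 bp were selected, per the labels' protocols. MBD3 was measured in 1 library, which the labels pair with input 2, as they do CHD4. There was therefore no replicate, and every interval below covers counting error over peaks or genes only. The other ChIP targets were RBBP4, RBBP7, CHD4, HDAC1 and HDAC2, with 1 library each. ATAC-seq, which measures how accessible chromatin is, had been done on E12.5 CD1 embryos that were either wild type (WT) or Dlx1/2KO, a knockout of Dlx1 and Dlx2 (KO). FTpos cells came from the ventricular zone and FTneg cells from the subventricular and mantle layers, and each deposited list combines 3 embryos of a genotype in 1 of these fractions.

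MBD3 is a core subunit of NuRD, a complex that joins a nucleosome remodelling motor (CHD4 or a relative) to the histone deacetylases HDAC1 and HDAC2, the histone chaperones RBBP4 and RBBP7, and the MTA, GATAD2 and CDK2AP1 proteins. MBD3 belongs to the methyl-CpG-binding domain family, but mammalian MBD3, unlike MBD2, binds methylated DNA poorly. A NuRD complex holds MBD3 or MBD2, not both. The ganglionic eminences are the ventral forebrain swellings whose progenitors give rise to GABAergic neurons, and NuRD in the developing brain is known for silencing genes of other stages and fates and for tuning enhancers. The MBD3, RBBP4 and RBBP7 lists carry the names of their samples. For the remaining 3 the name on the list differs from the sample (HDAC1 for the CHD4 sample, HDAC2 for the HDAC1 sample and CHD4 for the HDAC2 sample), so they are called by their sample label ("CHD4-labelled") without a claim about the protein. Peaks do not measure expression, so the tissue label could not be checked against the expression of marker genes.

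The strongest MBD3 peaks at transcription start sites lay over CpG-dense DNA. The upstream 250 bases of the 4 genes with the highest fold enrichment at a start are printed 5′ to 3′ on the gene's strand, with every CG dinucleotide in capitals, to show the kind of sequence found there (RefSeq, GRCm38.p6, the assembly of mm10). Rfx4, a winged-helix transcription factor needed for forebrain patterning, lies at chr10:84755798-84756047 on the plus strand. Map4, a microtubule-associated protein, lies at chr9:109931524-109931773 on the plus strand. Itpk1, an inositol phosphate kinase, lies at chr12:102704870-102705119 on the minus strand, and Ssbp4, a single-stranded DNA-binding protein, at chr8:70608315-70608564 on the minus strand.
Rfx4: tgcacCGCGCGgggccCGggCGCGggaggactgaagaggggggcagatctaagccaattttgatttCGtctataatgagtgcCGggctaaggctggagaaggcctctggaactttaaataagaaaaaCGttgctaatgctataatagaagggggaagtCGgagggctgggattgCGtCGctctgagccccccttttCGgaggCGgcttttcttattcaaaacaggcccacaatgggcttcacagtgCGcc
Map4: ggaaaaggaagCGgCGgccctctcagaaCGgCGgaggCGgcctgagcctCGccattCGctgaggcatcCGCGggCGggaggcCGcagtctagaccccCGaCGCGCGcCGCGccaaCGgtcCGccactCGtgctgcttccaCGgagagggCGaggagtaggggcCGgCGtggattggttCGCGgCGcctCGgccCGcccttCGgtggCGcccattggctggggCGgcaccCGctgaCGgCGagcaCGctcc
Itpk1: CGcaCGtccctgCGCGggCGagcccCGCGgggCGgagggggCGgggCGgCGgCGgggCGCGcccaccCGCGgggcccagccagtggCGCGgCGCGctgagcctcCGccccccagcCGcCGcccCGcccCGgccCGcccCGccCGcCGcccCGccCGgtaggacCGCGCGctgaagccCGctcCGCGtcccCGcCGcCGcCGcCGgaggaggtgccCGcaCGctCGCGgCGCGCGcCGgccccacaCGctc
Ssbp4: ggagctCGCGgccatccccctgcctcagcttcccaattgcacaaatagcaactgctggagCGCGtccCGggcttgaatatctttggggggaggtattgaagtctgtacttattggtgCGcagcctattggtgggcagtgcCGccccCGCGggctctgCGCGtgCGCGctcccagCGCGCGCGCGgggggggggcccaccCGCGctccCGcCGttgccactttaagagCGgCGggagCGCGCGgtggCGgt
These stretches held 15, 36, 51 and 28 CG dinucleotides, in the order printed. The MBD3 peaks over them had fold enrichments of 37.4, 30.8, 24.3 and 23.1 over input, a ratio computed at the summit by the authors' caller. The peaks overlap the printed bases, but the summits lay at -378, -172, -364 and 213 bp from the start (negative values are upstream), so only that of Map4 falls within them.

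For contrast, 2 promoters with an MBD3 peak but few CG dinucleotides were those of Tmtc2 and Pou2f1, the 2 with the highest fold among promoters with a CpG ratio below 0.4 (observed over expected CG, from base composition). Tmtc2, a membrane protein of the endoplasmic reticulum, lies at chr10:105574480-105574729 on the minus strand, and Pou2f1, the octamer-binding factor OCT1, at chr1:165934949-165935198 on the minus strand.
Tmtc2: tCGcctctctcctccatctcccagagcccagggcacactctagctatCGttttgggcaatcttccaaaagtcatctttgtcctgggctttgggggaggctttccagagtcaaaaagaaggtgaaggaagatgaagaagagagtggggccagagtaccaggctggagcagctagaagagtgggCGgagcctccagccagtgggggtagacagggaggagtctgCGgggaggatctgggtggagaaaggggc
Pou2f1: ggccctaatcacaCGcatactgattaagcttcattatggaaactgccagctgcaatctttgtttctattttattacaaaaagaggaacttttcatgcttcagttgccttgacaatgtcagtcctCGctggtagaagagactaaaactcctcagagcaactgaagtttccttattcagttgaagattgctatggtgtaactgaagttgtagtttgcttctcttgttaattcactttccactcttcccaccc
The printed bases held 4 and 2 CG dinucleotides. The 300-base promoters that gave the ratio, which add 50 bases after the start, held 10 and 2. The peaks overlapping them had fold enrichments of 14.6 and 9.47, and their summits need not lie within the printed bases. A peak over so CpG-poor a promoter was rare, at 138 of 8173 promoters with a ratio below 0.4 (1.69%).

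Most MBD3 peaks were modest in height, with a short tail of strong ones. Fold enrichment had a median of 4.61 (quartiles 3.91 and 5.61), with a lowest value of 2.17, a 95th percentile of 8.26 and a highest value of 40.1. There were 274 peaks (2.34%) with a fold of at least 10, 23 of at least 20 and 4 of at least 30. The −log10 q ran from 2.54 to 409 with a median of 9.50, and 5485 peaks (46.8%) reached 10. Peaks were 280 to 6071 bp wide with a median of 456 bp, and together covered 6.48 Mb. The 2 widest, chosen after their values were seen, were 6071 and 5719 bp and lay nearest to Ccny on chromosome 18. Neighbouring peaks were a median of 86351 bp apart, and 1258 gaps (10.8%) were shorter than 1 kb. Across the 11721 peaks fold and width were correlated with a Spearman's rho of 0.456, both values coming from the same signal. At the weak end, just inside the list, stood a peak within Adamtsl1 (−log10 q of 2.54 and a fold of 2.32) and one at the 3′ end of Ddit4 (2.55, and a fold of 2.55).

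Transcription start sites were the most frequent single location. A peak was counted there when any base lay within 1 kb of a start listed by RefSeq for a protein-coding gene. Of MBD3 peaks, 4510 (38.5%, Wilson 95% interval 37.6 to 39.4) lay at such a start, and 1097 (9.36%) lay at an end of a gene without a listed start, so the share at starts is a lower bound. A further 2973 peaks (25.4%) lay within genes away from the start, where introns and exons were not told apart, and 81 (0.691%) at 3′ ends. Between genes, 1242 peaks (10.6%) lay within 50 kb of a gene and 1818 (15.5%) farther away. The share at starts was 52.6% in the CHD4-labelled list, 51.4% in the HDAC1-labelled list, 32.5% in the HDAC2-labelled list, 31.1% in RBBP4 and 15.4% in RBBP7, which puts MBD3 between the first 2 and the rest.

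**Figure D1:**
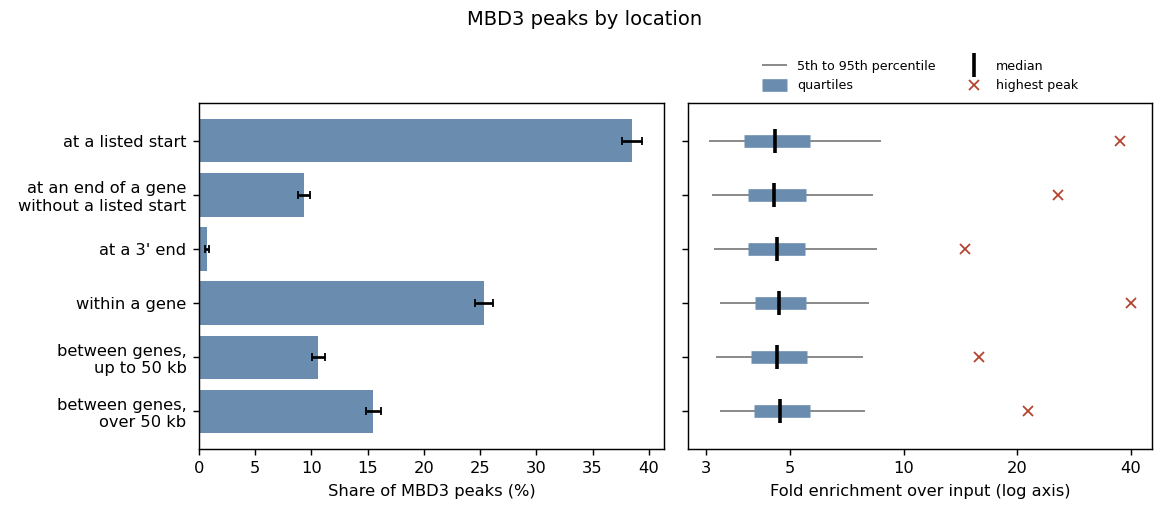
Left, share of the 11721 MBD3 peaks in each location class (%), with Wilson 95% intervals. Right, fold enrichment over input in each class on a log axis, with the median, quartiles, 5th to 95th percentile and highest peak. Starts hold 38.5% of peaks, while the 6 classes have medians between 4.52 and 4.70.

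Peak strength barely separated these locations. Median fold was 4.57 at starts, 4.68 within genes and 4.70 more than 50 kb from any gene, with quartiles of 3.79 to 5.65, 4.03 to 5.52 and 4.01 to 5.64. The share at starts did vary along the range of strengths, with high values at both ends. With the list split by fold into 10 groups of nearly equal size, it was 48.9% (46.1 to 51.8) in the weakest group, 32.1% (29.5 to 34.8) in the group numbered 6 and 43.9% (41.0 to 46.7) in the strongest.

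Around starts the summits were spread on both sides, with more of them inside the gene. Of 4367 summits within 1 kb of a listed start, 59.5% (58.0 to 60.9) were downstream, the median was 72 bp downstream, and the quartiles were 140 bp upstream and 230.5 bp downstream. The fullest interval of 100 bp was 100 to 200 bp downstream, with 729 summits (16.7%). Among the 125 summits with a fold of at least 10, 52.0% (43.3 to 60.57) were downstream. For peaks with a fold below 5 the share was 60.64% (58.8 to 62.5), just above the first interval, although the intervals overlap. The corresponding medians were 183 bp downstream in the CHD4-labelled list, 122 bp in the HDAC1-labelled list and 24 bp in RBBP4, and 2 bp upstream in RBBP7 and 20 bp upstream in the HDAC2-labelled list.

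**Figure D2:**
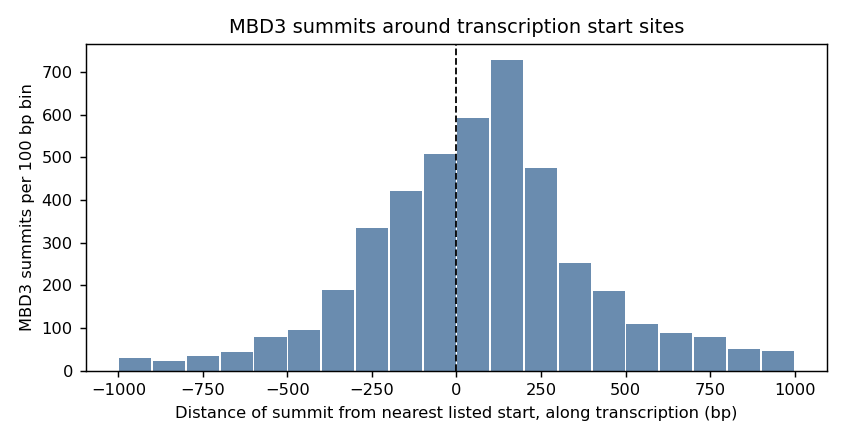
Position of MBD3 summits relative to listed transcription start sites, in bins of 100 bp along the direction of transcription (negative values are upstream). Of 4367 summits within 1 kb, 59.5% are downstream, and the fullest bin is 100 to 200 bp downstream.

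Chromosome X carried few MBD3 peaks. It had 117 peaks (0.998% of the list), or 12.1 per 100 protein-coding genes, while the autosomes ran from 33.6 on chromosome 7 to 91.8 on chromosome 18 and 84.7 on chromosome 12. Chromosome X also had 3.62 peaks per 100 genes in the HDAC2-labelled list, 7.25 in the HDAC1-labelled list, 15.5 in RBBP7, 37.9 in the CHD4-labelled list and 46.2 in RBBP4. In the same order the lowest autosome, chromosome 7, had 17.4, 32.3, 35.1, 57.2 and 87.3. Chromosome X was thus the lowest in all 6 lists, not in MBD3 alone. The sex of the embryos was not given.

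The highest fold enrichments belonged to genes of many kinds. The top peak lay within Cacng4, whose product accompanies AMPA-type glutamate receptors (chromosome 11, 107783968 to 107784798, fold 40.1), and overlapped all 5 other lists. Next came the start of Rfx4 (chromosome 10, 84754670 to 84756194, 37.4), a peak within the calmodulin-binding transcription factor gene Camta1 (chromosome 4, 151107325 to 151109070, 33.1) and the start of Map4 (chromosome 9, 109931262 to 109932805, 30.8). Pigk, a subunit of the enzyme that attaches GPI anchors, followed with 28.9, then the calpain gene Capn2 with 28.2. The cohesin acetyltransferase gene Esco1 had 25.6, the nuclear factor I gene Nfic 25.1, the activin receptor gene Acvr1b 25.1 and the axonemal dynein gene Dnah2 23.5. Of the 15 highest peaks 12 overlapped all 5 other lists and the rest overlapped 4.

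At starts, the 10 highest peaks were those of Rfx4, Map4, Itpk1, Ssbp4, Igdcc4 (22.9), Foxk2 (22.5), Cblb (22.0), Apba1 (21.2), Gnl1 (21.0) and Bsn (20.3). Foxk2 is a forkhead transcription factor, Cblb a ubiquitin ligase, Apba1 a synaptic adaptor and Bsn the presynaptic scaffold bassoon. Their summits lay from 378 bp upstream (Rfx4) to 415 bp downstream (Gnl1) of the start. Peaks of Map4, Itpk1 and Gnl1 lacked overlap with the HDAC2-labelled list and that of Foxk2 with the CHD4-labelled list. The others overlapped all 5.

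More than 50 kb from any gene, the strongest peak lay 77.0 kb from Ifngr1, the interferon gamma receptor gene (chromosome 10, 19514105 to 19515423, fold 21.4). It was followed by peaks nearest to Fam110b (161.713 kb away, fold 15.2), Ralgapa2 (14.7), Zdhhc25 (13.6), Psat1 (12.9), Matn1 (12.9), AI593442 (12.6), Tox3 (12.51), Lhx5 (12.49) and Bcl11b (12.4). The nearest gene is a label of position only. Of these 10, all but the one near AI593442 overlapped every other list. The peak near the LIM homeobox gene Lhx5 was 5562 bp wide (chromosome 5, 120341360 to 120346921), and the one near Bcl11b, a zinc finger factor of striatal neurons that binds NuRD, lay 502.44 kb from that gene.

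MBD3 peaks were unevenly spread over genes. Each peak was assigned to the gene containing its summit or to the nearest gene body. The 11721 peaks then fell to 6491 genes, of which 4240 had 1 peak, 361 had at least 5 and 66 at least 10. The 361 genes held 2802 peaks (23.9%). The zinc finger gene Zfp608 had 39, over 1213.74 kb, with 7 of them inside the gene. Gse1 had 38, all within the gene body, 4 of them at starts. Auts2, a gene of neuronal development whose product joins a Polycomb complex, had 31 (28 in the gene), the coregulator gene Mn1 26 and the nuclear factor I gene Nfia 22.

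Sox2, the pluripotency and neural progenitor factor, had 21 MBD3 peaks between 34441225 and 35084713 on chromosome 3, a span of 643 kb around a gene of 2.467 kb, and none at its listed start. Its peaks had a median fold of 4.25 and a highest of 9.10. The TALE homeodomain gene Meis2, the progenitor gene Sox1 and the teneurin gene Tenm4 had 18 each. Celf4, Tle1 and Tle3 had 17, and Bcl11b, Tenm3 and Tmem161b 16, and these 6 were named after their values were seen. Long genes and wide gaps between genes take in more peaks under this assignment, so the counts are not densities.

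Genes with an MBD3 peak at a listed start numbered 4198 of 17274 (24.3%), and this share is the background for the gene lists below. With peaks of −log10 q of at least 10 alone it was 14.1%. Over those genes the strongest peak at the start had a median fold of 4.71 (quartiles 3.89 and 5.85). There were 575 genes (13.7%) with at least 2 peaks at the start and 139 with a fold of at least 10. The background in the other lists was 48% for RBBP4, 47.3% for the CHD4-labelled list, 29.3% for the HDAC1-labelled list, 12.7% for RBBP7 and 10.3% for the HDAC2-labelled list. Of 21 gene lists, 14 had a share above the MBD3 background and 7 below it. Among those above, the intervals of the progenitor, Hedgehog, TLE, cell cycle and cholinergic lists include the background. Among those below, so do those of the housekeeping, endothelial and mural, oligodendrocyte and astrocyte, and microglial lists. The lists were chosen with earlier results of these data known. The background includes 940 olfactory receptor genes, of which 0 had a peak. A peak overlapped 34.2% of CpG-rich promoters and 5.13% of other promoters (defined below). The gene lists were not matched to the background for CpG content. Over all distinct members other than olfactory receptors, 120 of 335 (35.8%) had a peak. In each of the 21 lists RBBP4, with its higher background, had a peak at more member starts than MBD3.

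**Figure D3:**
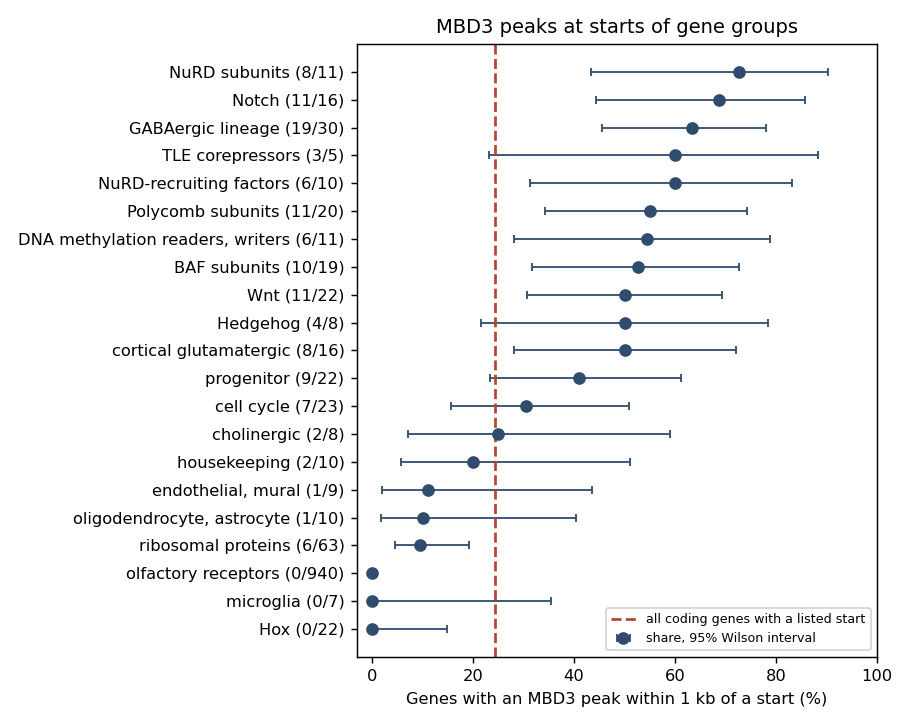
Share of genes with an MBD3 peak within 1 kb of a listed start (%) for each of 21 gene lists, with Wilson 95% intervals and the number of members. The share over all 17274 genes is 24.3%, and lists run from 72.7% for NuRD subunit genes to 0% for Hox, microglial and olfactory receptor genes.

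MBD3 lay at the starts of most genes listed for its own complex, as did RBBP4 and the CHD4-labelled list. Of the 11 NuRD subunit genes with a listed start 8 had an MBD3 peak (72.7%, 43.4 to 90.3). RBBP4 and the CHD4-labelled list each had a peak at 10 of these starts. The HDAC1-labelled list had one at 6, RBBP7 at 4 and the HDAC2-labelled list at 3. The folds that follow are those of MBD3. Mta1, whose product holds the deacetylases, had a fold of 7.89, and the peak overlapped the RBBP4 list only. Mbd3 itself had 7.87 (chromosome 10, 80398553 to 80399524) and Hdac2 6.70, and both peaks overlapped all 5 other lists. Gatad2a, which bridges MBD3 and the remodeller, had 3 peaks with a best fold of 5.40. Mta2 (5.00), the remodeller genes Chd4 (4.92) and Chd5 (4.57), and Rbbp4 (3.95) had peaks too. Cdk2ap1, Gatad2b and Rbbp7 had none at the start. Among the 4 members without a listed start, Chd3, Mbd2 and Mta3 had a peak at a gene end, a class with a background of 23.4% over all coding genes, and Hdac1 did not.

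Genes of other chromatin systems were also above background. Polycomb subunit genes, whose products silence developmental genes through methylation and ubiquitylation of histones, had a peak at 11 of 20 starts (55%, 34.2 to 74.2). Ezh2, the histone H3 lysine methyltransferase, had the highest value of any listed gene, with a fold of 18.4 (chromosome 6, 47594089 to 47595005). Ring1, a ubiquitin ligase, had 11.8 and Jarid2, a cofactor of EZH2, 9.73. Kdm2b (7.001), which recruits Polycomb to CpG islands, and Bmi1 (6.48) followed. Eed and Suz12, the core partners of EZH2, had no MBD3 peak. Of the 11 genes for DNA methylation enzymes and readers 6 had a peak (54.5%, 28.0 to 78.7), among them Uhrf1 (9.55), which guides maintenance methylation, the methyltransferase genes Dnmt3b (6.71), Dnmt1 (5.89) and Dnmt3a (5.76), and the demethylase gene Tet2 (4.06). Tet1 and Tet3 had none at the start. The BAF remodelling complex had 10 of 19 (52.6%, 31.7 to 72.7), led by Brd7 (9.31), Dpf3 (7.43) and Dpf1 (6.32), with the motor genes Smarca2 (5.14) and Smarca4 (4.31).

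Genes of zinc finger and related factors known to bind NuRD had a peak at 6 of 10 starts (60%, 31.3 to 83.2), namely Sall1 (9.13), Bcl11a (8.15), Bcl11b (6.09), Adnp (5.23), Zfpm1 (5.23) and Ikzf1 (4.37). TLE corepressor genes, whose products act for Notch and homeodomain factors, had 3 of 5 (60%, 23.1 to 88.2), with Tle1 at 6.36, Tle4 at 5.18 and Tle3 at 4.42.

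Among genes of the GABAergic lineage, 19 of 30 had an MBD3 peak at the start (63.3%, 45.5 to 78.1). Their fold was mostly ordinary, with a median of 4.52 against 4.71 over all genes with a peak. With peaks of −log10 q of at least 10 alone, 6 of 30 starts had one (20%), beside a background of 14.1%. Sox11, a factor of newborn neurons, stood out with 16.0 (chromosome 12, 27341340 to 27343990), and Foxp1, a factor of striatal projection neurons, had 9.62. The GABA synthesis gene Gad2 had 4.89, the vesicular GABA transporter gene Slc32a1 4.12 and Lhx6, a factor of medial ganglionic eminence interneurons, 4.59. Other factors in this list, such as Isl1 (3.24), Meis2 (3.30), Prox1 (3.98) and Zeb2 (3.98), also had peaks. Gad1, Gsx1, Gsx2, Lhx8, Nkx2-1, Npas1, Nr2f1, Nr2f2, Sox6, Sp8 and Sp9 had none at the start, though each of the 11 had at least 1 peak assigned to it elsewhere. Of the 20953 protein-coding genes to which a peak could be assigned, 6491 had at least 1, and genes beside wide gaps take in more. Sox6 had a peak with a fold of 10.5 within the gene, and Nr2f2 had 13 assigned peaks and Nr2f1 11.

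At the Dlx1 and Dlx2 genes, homeodomain factors required for GABAergic differentiation, MBD3 peaks lay at both starts and between the genes on chromosome 2. The Dlx1 start had a fold of 4.52 (71528014 to 71530106, overlapping all 5 other lists) and the Dlx2 start 4.71 (71546456 to 71547161, overlapping 3). Between them, the peaks at 71535938 to 71536528 and 71537896 to 71538696 had folds of 7.09 and 7.35. The RBBP7 list overlapped only the peak at the Dlx1 start among these 4.

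Notch pathway genes, which keep progenitors undifferentiated through signalling between neighbouring cells, had a peak at 11 of 16 starts (68.8%, 44.4 to 85.8), and at 5 of 16 with peaks of −log10 q of at least 10 alone. The ligand genes were Jag1 (8.18), Dll1 (6.22), Dll3 (4.21) and Jag2 (3.50), while Dll4 had none at its start and 3 elsewhere (up to 5.89). Of the receptor genes Notch1 had a peak at the start (3.25). Notch2 had 3 peaks away from its start (up to 5.53), and Notch3 and Notch4 had none. Rbpj, the DNA-binding factor of the pathway, had 5.39, the glycosyltransferase gene Lfng 4.58 and the inhibitor gene Numb 4.03. Among the Hes and Hey genes Hes6 had 11.8 (chromosome 1, 91412903 to 91414534), Hes5 4.65 and Hey2 3.39.

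Wnt pathway genes had 11 of 22 (50%, 30.7 to 69.3). These were the ligand genes Wnt5b (7.08), Wnt2b (6.60) and Wnt7a (4.96), the receptor genes Fzd9 (4.74), Fzd1 (4.003) and Fzd7 (3.55), the secreted inhibitor gene Sfrp2 (8.94), the intracellular genes Gsk3b (6.32) and Ctnnb1 (5.57), the nuclear factor gene Lef1 (3.91) and the feedback target Axin2 (6.60). Hedgehog pathway genes had 4 of 8 (50%, 21.5 to 78.5), namely Smo (4.84), Ptch1 (4.53), Gas1 (4.44) and Sufu (4.34), while Gli2 and Gli3, which encode the effectors, had peaks only away from the start. With peaks of −log10 q of at least 10 alone, 1 of the 8 Hedgehog starts had one, a share below the background of 14.1%.

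Ventricular zone progenitor genes had 9 of 22 (40.9%, 23.3 to 61.3), led by Vax1 (7.64), Sox1 (6.16) and Lhx2 (5.71), while Pax6, Olig2, Nes and Vim had none at the start. Genes of cortical glutamatergic neurons, a lineage that the ganglionic eminences do not make, had 8 of 16 (50%, 28.0 to 72.0). Bcl11a (8.15), Cux1 (7.85), Cux2 (7.85), Neurod2 (6.92), Neurog2 (4.34), Neurog1 (4.30), Emx1 (4.12) and Neurod1 (3.56) had peaks at the start. Eomes, Tbr1, Fezf2 and the glutamate transporter gene Slc17a7 had peaks only elsewhere, with best folds of 7.85, 4.14, 6.71 and 3.30, and the transporter gene Slc17a6 had none. With peaks of −log10 q of at least 10 alone the list had 4 of 16. Bcl11a stands in 2 lists, and some members of this one, Bcl11a among them, are also used by other neurons. The intervals of all these lists overlap one another, and the lists were not tested against each other.

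The other 9 lists had shares nearer to the background or under it. Cell cycle genes had 7 of 23 (30.4%, 15.6 to 50.9), with E2f3 (6.19), the inhibitor genes Cdkn1a (5.62), Cdkn1b (4.59) and Cdkn2a (3.42), E2f1 (5.14), Cdk4 (4.62) and Ccne1 (3.69). The replication and mitosis genes Mcm2, Mcm3, Mcm5, Mcm6, Pcna, Cdk1, Plk1 and Top2a had none. Ccnd2, a D-type cyclin gene without a listed start, had a peak of 8.01 at a gene end and one of 14.4 lying 3321 bp from the gene (chromosome 6, 127155251 to 127155978). The CHD4-labelled list had a peak at 22 of the same 23 starts, beside its background of 47.3%. Ribosomal protein genes had 6 of 63 in the MBD3 list (9.52%, 4.44 to 19.3), against 58 of 63 in the CHD4-labelled list and 25 of 63 in RBBP4. The 6 were Rpl14 (7.103), Rpl13 (6.46), Rpl15 (6.45), Rpl35 (4.01), Rps15 (3.84) and Rpl23 (3.22). Housekeeping genes had 2 of 10, Hprt (4.70) and Polr2a (4.55).

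Cholinergic genes had 2 of 8, Ache (9.89) and Isl1 (3.24). Among endothelial and mural genes Kdr was the 1 of 9 (3.50), among oligodendrocyte and astrocyte genes Cnp was the 1 of 10 (6.71), and microglial genes had 0 of 7, which allows a share of up to 42.9% (3 counts of the total, the limit used here for a count of 0). Olfactory receptor genes had 0 of 940, which allows up to 0.319%. Hox genes, which pattern the body axis behind the forebrain, had 0 of 22, which allows up to 13.6%. The RBBP4 list had a peak at all 22 of those Hox starts and RBBP7 at 8, whereas the lists labelled CHD4, HDAC1 and HDAC2 had 0.

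Promoters with an MBD3 peak were rich in CpG. RefSeq promoters of 300 bases, 250 before the start and 50 after, numbered 21045, none of them on chromosome 18, and 3868 (18.4%) overlapped an MBD3 peak. The median CpG ratio was 0.824 (quartiles 0.688 and 0.948) with a peak and 0.446 (0.190 and 0.773) without. Calling a promoter CpG-rich at a ratio of at least 0.6 and a GC content of at least 50%, 84.8% (83.7 to 85.9) of promoters with a peak were CpG-rich, against 36.8% (36.1 to 37.5) of those without. The share was 84.1% where the fold was below 4 and 91.1% (85.4 to 94.7) where it was at least 10.

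Read the other way, 3281 of 9599 CpG-rich promoters had an MBD3 peak (34.2%, 33.2 to 35.1) and 587 of 11446 others (5.13%, 4.74 to 5.55). The same pair was 71.8% and 13.1% for the CHD4-labelled list, 72.6% and 16.3% for RBBP4, 37.6% and 5.54% for the HDAC1-labelled list, 14.8% and 3.16% for RBBP7, and 11.8% and 2.16% for the HDAC2-labelled list. The difference was thus present in all 6 lists. Sequencing yield depends on base composition, and its part in these shares was not tested.

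**Figure D4:**
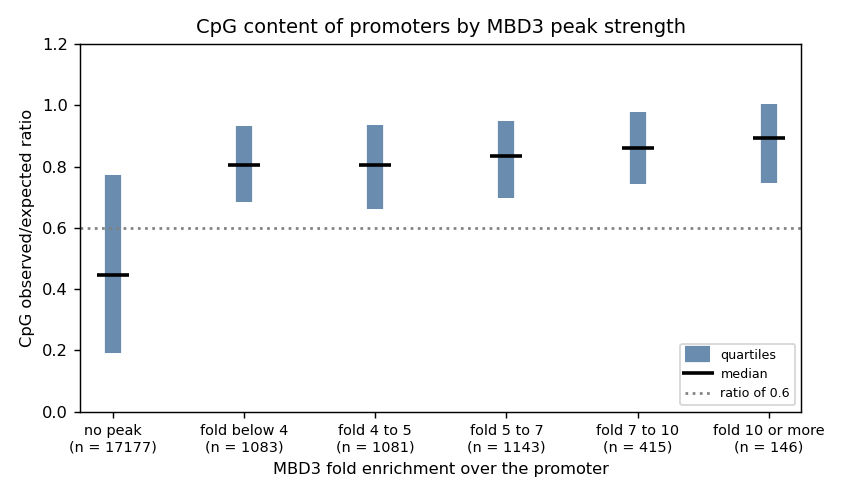
CpG ratio of RefSeq promoters of 300 bases without an overlapping MBD3 peak and, where there is one, by the fold enrichment of the peak (bars are quartiles, lines medians, and the dotted line the ratio of 0.6). Over all folds together the median ratio is 0.824 in the 3868 promoters with a peak and 0.446 in the 17177 without.

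Within CpG-rich promoters, 7 short motifs were searched on both strands. GGGCGG was more frequent with an MBD3 peak than without, and the ETS, CREB, homeodomain and CCAAT letters were less frequent, in each case with intervals that did not overlap, while those of the other 2 overlapped. GC content had a median of 68.3% with a peak and 63.3% without. The Sp/KLF letters GGGCGG were found in 82.6% (81.3 to 83.9) with a peak and 73.7% (72.6 to 74.8) without, beside 46.7% of all promoters. The ETS letters CCGGAAG were found in 15.9% (14.7 to 17.2) and 22.2% (21.2 to 23.3), beside 11.7% of all, and the CREB letters TGACGTCA in 2.62% (2.13 to 3.23) and 4.32% (3.85 to 4.85), beside 2.26%. The homeodomain letters TAATTA, the core that DLX factors bind, were found in 0.914% (0.641 to 1.30) and 1.63% (1.35 to 1.97), beside 4.47%. For the E-box CAGCTG the shares were 14.1% and 12.4%, beside 15.7%. CCAAT gave 34.2% (32.6 to 35.87) and 37.1% (35.90 to 38.3), beside 38.5%, and the palindromic NRF1 motif 2.41% and 2.72%, beside 1.34%. A match gives the presence of letters only, and GC content differs between the groups compared.

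MBD3 peaks were shared with other subunits to very different degrees. At an overlap of at least 1 bp, 92.3% of MBD3 peaks overlapped RBBP4, 65.2% the CHD4-labelled list, 50.2% the HDAC1-labelled list, 41.9% RBBP7 and 30.5% the HDAC2-labelled list. As a share of the other list, overlap with MBD3 covered 34.9% of RBBP4, 41.5% of the CHD4-labelled list, 54.7% of the HDAC1-labelled list, 33.4% of RBBP7 and 66.3% of the HDAC2-labelled list. The lists differ in length, from 5517 to 29762 peaks, and a longer list overlaps more. With all lists cut to the same length by q, the overlap was 51.4% for RBBP4, 43.6% for the HDAC2-labelled list, 43.1% for the HDAC1-labelled list, 32.3% for the CHD4-labelled list and 25.4% for RBBP7. Where summits lay within 250 bp of each other, Spearman's rho between the folds was 0.348 with the HDAC2-labelled list (2818 peaks), 0.250 with RBBP4 (8752), 0.186 with the HDAC1-labelled list (4574), 0.122 with RBBP7 (4086) and 0.113 with the CHD4-labelled list (5047). By the labels the CHD4 sample shares input 2 with MBD3, and RBBP4 and RBBP7 have input 3. The run prefix in the names of the lists instead groups MBD3 with the list attached to the HDAC2 sample, which carries the name CHD4, so which list shares an input with MBD3 was not settled.

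Peaks with every subunit were the tall and wide ones. The 1440 MBD3 peaks that overlapped all 5 other lists (12.3%) had a median fold of 5.996 and a width of 785.5 bp, against 4.46 and 323.5 bp for the 454 that overlapped none (3.87%). The former numbered 215 when every list was held to a −log10 q of at least 10, and the latter 78 when MBD3 was. In the 10 groups by fold, the share with all 5 lists was 4.18% in the weakest and 40.8% in the strongest, and the HDAC2-labelled list went from 14.8% to 64.5%. RBBP4 was near its ceiling throughout, from 94.6% in the weakest through 88.6% in the group numbered 5 to 97.8% in the strongest. Wider peaks have more bases with which to overlap, and how much of this comes from width was not tested.

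**Figure D5:**
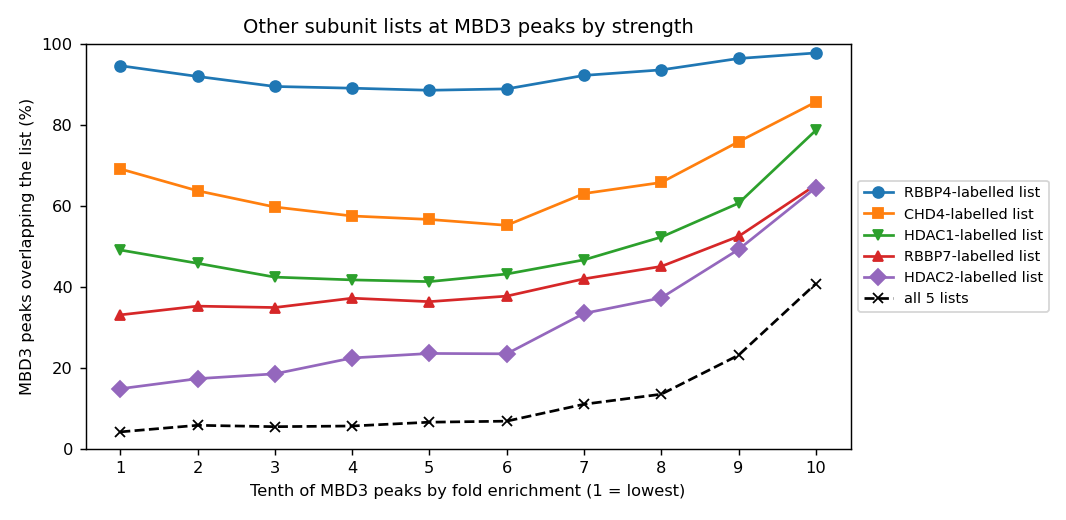
Share of MBD3 peaks that overlap each other ChIP list (%), in 10 groups of MBD3 peaks ordered by fold enrichment (1 is the lowest). The share overlapping all 5 lists is 4.18% in the lowest group and 40.8% in the highest, while RBBP4 stays between 88.6% and 97.8%.

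The company of MBD3 differed by location. The most frequent combination was RBBP4 with the CHD4-labelled and HDAC1-labelled lists and without the other 2, at 1798 peaks (15.3%), of which 63.0% lay at starts. RBBP4 alone accompanied 1460 peaks (12.46%), of which 27.9% lay at starts. RBBP4 with RBBP7 and no other list accompanied 816 peaks, of which 10.2% lay at starts, 40.1% within genes and 45.1% between genes. All 5 lists together had 32.2% (29.8 to 34.6) at starts, compared with 48.9% (47.2 to 50.6) for peaks with 3 of the 5.

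Peaks that overlapped no other list were mostly away from starts, with 11.7% (9.04 to 14.95) there, 46.9% within genes and 37.0% between genes. The strongest of them lay within Mpdz, a scaffold protein with PDZ domains (chromosome 4, 81330322 to 81330671, fold 10.1), and a further peak within the same gene had 8.38. The others of the 10 strongest were 1386 bp from the DNA repair gene Ercc1 (9.67), within Mbnl1, a splicing regulator (8.45), at the start of Acot4 (8.08), near Osr2 (7.79), within Nedd4l (7.70), near Cdc37 (7.64), within Inpp5b (7.42) and at the start of Fbh1 (7.08). All 10 were 340 to 530 bp wide.

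MBD3 peaks were present in regions called as more open in KO or in WT embryos, and 2 of them lay at a start while the rest did not. Of the 727 regions more accessible in KO FTneg cells 263 held an MBD3 peak (36.2%, 32.8 to 39.7). The 269 peaks there had a median fold of 5.00 against 4.61 over the list, and 2 of them (0.743%) lay at starts. Cacng4 and the peaks near Ifngr1 and Fam110b described above were among them, as were peaks within the corepressor gene Tle1 (15.4), near Slc36a4 (11.9), within the axon guidance gene Robo1 (11.9), near the cadherin gene Cdh8 (10.7), within Fam172a (10.0), near Pdcd1 (9.95) and within the ephrin receptor gene Epha3 (9.32). RBBP7 overlapped 78.4% of the 269, against 41.9% of all MBD3 peaks, and all 5 other lists overlapped 36.4%, against 12.3%. The sets differ in location, as 38.5% of all MBD3 peaks lay at starts, and peaks matched for location were not compared. The accessibility lists hold only regions called different between KO and WT. Shares of these regions with an MBD3 peak, here and below, therefore have no share over all accessible regions beside them.

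Of the regions more accessible in WT cells, 12 of 53 in FTneg (22.6%, 13.45 to 35.5) and 21 of 33 in FTpos (63.6%, 46.6 to 77.8) held an MBD3 peak. None of these peaks lay at a start. Some peaks lay in regions of both lists, so the 12 and the 21 were 29 distinct peaks in total. RBBP7 overlapped 8.33% of the 12 and 28.6% of the 21, beside the 41.9% of all MBD3 peaks. The strongest was within Pola1 on chromosome X (93408936 to 93410330, fold 12.01), followed by a peak within Metap1d upstream of Dlx1 (chromosome 2, 71516828 to 71518222, 9.39) and one nearest to Sox11 (8.79). Both peaks between Dlx1 and Dlx2 and the 2 nearest to Dlx6 (5.43 and 4.35) were among them. The peaks between Dlx1 and Dlx2 lie at the locus knocked out in the KO embryos. Whether the DNA there is intact in those embryos was not given and was not tested. The other 22 of these 29 peaks had folds from 3.14 (within Rab31) to 8.28 (nearest to Tecrl), and included peaks nearest to Flrt2 (7.89), Zfp608 (6.73 and 5.71) and Nfia (5.89) and within Gpm6a (6.58) and the semaphorin receptor gene Plxna2 (5.77). Of the 12 regions more accessible in KO FTpos cells 0 held an MBD3 peak, which allows a share of up to 25%. The regions were measured at E12.5 and the peaks at E13.5, embryos were combined in each region list, and differences between the 4 shares were not tested. Among regions with an area (the accessibility caller's score) of at least 1000 the shares were 43.4% for KO FTneg, 40% for WT FTneg and 37.5% for WT FTpos, so their order changed. The WT lists held only 53 and 33 regions before that cut, so their shares after it rest on few regions. With MBD3 peaks of −log10 q of at least 10 alone, the KO FTneg share was 21.5%.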

How the data were processed

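ChIP-seq peaks and ATAC-seq regions came as lists that the authors deposited on mm10. The submitters' processing notes name MACS2 2.2.7.1, deepTools, Genrich, BWA and SAMtools 1.10, with no order or settings. The authors' ChIP lists give each peak's fold enrichment over input (a ratio) and its −log10 p and −log10 q. The names of the ChIP lists say that blacklisted regions were removed. The authors' accessibility lists give a score per region, the area of the caller's signal, and were named for an area of at least 500. Read depth is unknown.

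Overlap, location and promoter content were computed with Python 3.11.15, numpy 2.4.6, pandas 2.3.3 and scipy 1.17.1. Interval code was tested on simulated data. RefSeq tables (GRCm38.p6) gave a listed start for 17274 of 21631 protein-coding genes on chromosomes 1 to 19 and X, and none on chromosome 18. Genes and peaks were named by fixed rules: the highest fold overall (15), and the 10 highest at starts, more than 50 kb from genes, without other lists and in KO-higher regions, peaks in WT-higher regions (the weaker ones as a range), the 10 genes with most peaks, the 3 lowest −log10 q, and gene list members. A few genes that these rules take are not reported here. The members, rules and gene lists were chosen with earlier results of these data known. No test between conditions was possible with 1 library. Alternatives were other windows, overlaps and thresholds, and gene ends. The share of genes with a peak at either end was added after seeing the data.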

Additional observations from a re-analysis of the deposited data

How the results depend on the processing

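No paired analysis was possible because each ChIP target had 1 library and embryos were combined in each accessibility list. A −log10 q of at least 10 left 5485 MBD3 peaks and a fold of at least 5 left 4446. The share of peaks at starts was 37.3% by summit, 35.9% within 500 bp, 41.0% within 2.5 kb, 43.7% at −log10 q of at least 10 and 43.4% at either gene end. The share of genes was 23.5% within 500 bp, 25.3% within 2.5 kb, 14.1% at −log10 q of at least 10 and 23.4% at either end of all coding genes, and list members with a peak numbered 76 at −log10 q of at least 10. Of 21 gene lists 19 kept their side of the background in every setting, while Hedgehog and cholinergic genes fell below it at −log10 q of at least 10, and cholinergic genes also within 2.5 kb. Overlap with RBBP4 was 89.1% with 50% of the MBD3 peak covered, 74.7% with summits within 250 bp, 88.0% at −log10 q of at least 10 in every list and 51.4% with lists of equal length. In the same order it was 32.7%, 34.9%, 26.1% and 25.4% for RBBP7, 57.8%, 43.1%, 59.0% and 32.3% for the CHD4-labelled list, 39.9%, 39.0%, 27.2% and 43.1% for the HDAC1-labelled list, and 22.0%, 24.0%, 12.53% and 43.6% for the HDAC2-labelled list, so the order of the lists changes with list length. Peaks without any other list numbered 78 at −log10 q of at least 10. Peaks with all 5 numbered 700 by summits and 215 at −log10 q of at least 10 in every list. Median fold away from starts was 5.79 at −log10 q of at least 10. KO-higher FTneg regions held an MBD3 peak in 43.4% at an area of at least 1000 and 21.5% at −log10 q of at least 10, and the WT-higher shares became 40% (FTneg) and 37.5% (FTpos) at an area of at least 1000, which reverses the order of the WT-higher FTpos and KO-higher FTneg shares. The cause of these changes was not tested. The WT-higher lists held only 53 (FTneg) and 33 (FTpos) regions before the area cut, so their shares after it rest on few regions. With unknown depth and no replicate, absence of a peak is absence from the list only.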
